A study of Homo sapiens with 68 samples.

Results

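The SNRPN and snoRNA cluster on human chromosome 15 held 13 of the 15800601 peaks that the study listed for 4 RNA-binding proteins, and RBFOX2 held 0 of them. Members are all listed peaks on the plus strand lying within 25068000 to 25664000 (hg19), a window of 596 kb, and were found in 12 of 68 libraries. By protein, hnRNPI held 9, hnRNPc 3 and hnRNPA1 1. Of the 13 peaks, 10 came from libraries crosslinked with ultraviolet light and 3 from libraries without it.

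The cluster is imprinted, and in most tissues its long plus-strand transcript is made from the paternal chromosome only. SNRPN encodes a component of spliceosomal small nuclear ribonucleoproteins, and box C/D snoRNAs of the SNORD116 and SNORD115 families are cut from introns of the host transcript SNHG14, whose far end runs antisense to UBE3A. Paternal loss of the SNORD116 part is known for Prader-Willi syndrome, and SNORD115 is known mainly from brain. RBFOX2 is a splicing regulator that binds GCATG elements, and long RNAs capped by snoRNAs of the SNORD116 part are known to bind RBFOX proteins in human pluripotent stem cells. hnRNPI, also called PTBP1, binds pyrimidine-rich RNA and represses exons. hnRNPc binds uridine tracts in introns, and hnRNPA1 binds UAG-like elements.

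The libraries were made by TLC-CLIP from HEK293T, a human embryonic kidney line. In this method a protein is crosslinked to RNA, immunoprecipitated, and the bound RNA fragments are sequenced. There are 34 groups of 2 replicates, and the labels do not say whether replicates came from separate cultures, so p-values measure the spread between these libraries, which may be technical. Crosslinked groups from 50000 cells at 0.005 U RNase exist for all 4 proteins with gel purification (PAGE, titled lowRNase), without it (noPAGE), and without it but with RecJ, a single-strand DNA exonuclease (noPAGE_RecJ). hnRNPA1 and hnRNPc also have groups at 0.025 U (mediumRNase). hnRNPc has noPAGE groups titled 5k and 500, with and without RecJ, for which the labels still give 50000 cells. RBFOX2 and hnRNPc have PAGE groups of 10000 cells at 0.001 U and 1000 cells at 0.0001 U. Each protein has noUV groups with and without PAGE, and 4 groups hold other gel regions of the hnRNPc pulldown. RBFOX2 was precipitated with an antibody named RBM9. Lists ran from 303 to 523402 peaks, and hnRNPc_50k_lowRNase replicate 1 was short, with 3268. Sequencing depth is unknown.

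The lists name genes only by Ensembl identifier. Of the members, 12 were listed under ENSG00000224078.6 and 1 under ENSG00000128739.16. The 12 peaks span 322 kb, and in the RefSeq gene order for GRCh38 SNHG14, at 595855 nt, was the only gene from SNHG14 to UBE3A that is longer than this span. RefSeq lists 30 SNORD116 and 48 SNORD115 copies there. Which copy, exon or intron lies under a peak was not analysed here.

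The region was one of the emptier stretches of the lists. Among 7364 strand-specific windows of the same length with at least 1 peak in any list, the median was 1138.5 peaks over the 68 lists, and 15.2% held 13 or fewer. The minus strand of the same window, where RefSeq order places UBE3A, held 1961 peaks in 55 lists. ENSG00000224078.6, with 12 peaks in all lists together, stood against a median of 126 peaks over 22843 identifiers, and 27.8% of identifiers had 12 or fewer. ENSG00000128739.16 had 1 peak in all lists, as did 7.27% of identifiers. Transcript levels were not measured in these files, so few transcripts and little binding to them cannot be told apart.

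**Figure D1:**
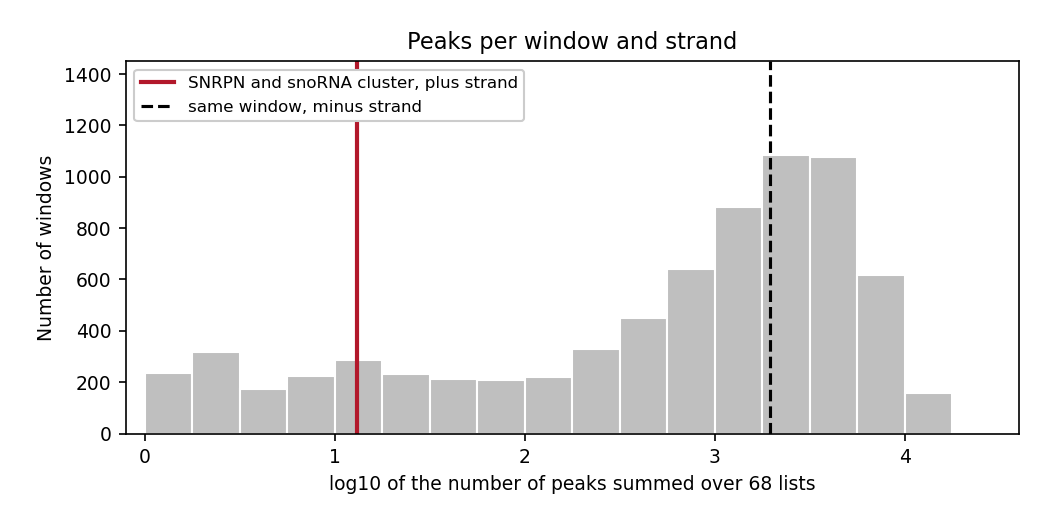
Histogram of the number of peaks, summed over 68 lists and shown as log10 on the horizontal axis, in 7364 windows of 596 kb on 1 strand each; the vertical axis counts windows. The solid line marks the plus-strand cluster at 13 peaks and the dashed line the minus strand of the same window at 1961 peaks.

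On the plus strand the cluster had empty flanks too. The nearest listed peak before it ended 186 kb upstream, at 24881605 to 24881643, with 4 reads in RBFOX2_50k_lowRNase replicate 1. The nearest one after it began 516 kb downstream, at 26179734 to 26179799, with 5 reads in hnRNPI_50k_lowRNase replicate 2. The adjoining plus-strand windows of the same length held 5 peaks each over the 68 lists.

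The members were weak peaks. The last number of a peak name, read here as the reads over the peak, ran from 4 to 15 with a median of 6, and the lowest number in any list was 4. In 10 of 13 peaks it was 6 or lower. Within its own list, a member had more reads than 10.3% of peaks at the median, and than 67.1% at most. The p-value that the authors' peak caller gave ranged from 1.96e-14 to 0.00370, where the largest in any list was 0.00755. Widths ran from 19 to 88 nt with a median of 64 nt.

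Joined where they overlapped, the 13 peaks formed 6 sites, and 1 of these held 7 of them. This recurrent site lies at chr15:25360684-25360758 on the plus strand, is 75 nt long, and all 7 of its peaks came from hnRNPI. Cut into 4 equal stretches of 149 kb, the region held 1 peak in the first, 9 in the second, 0 in the third and 3 in the fourth.

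**Figure D2:**
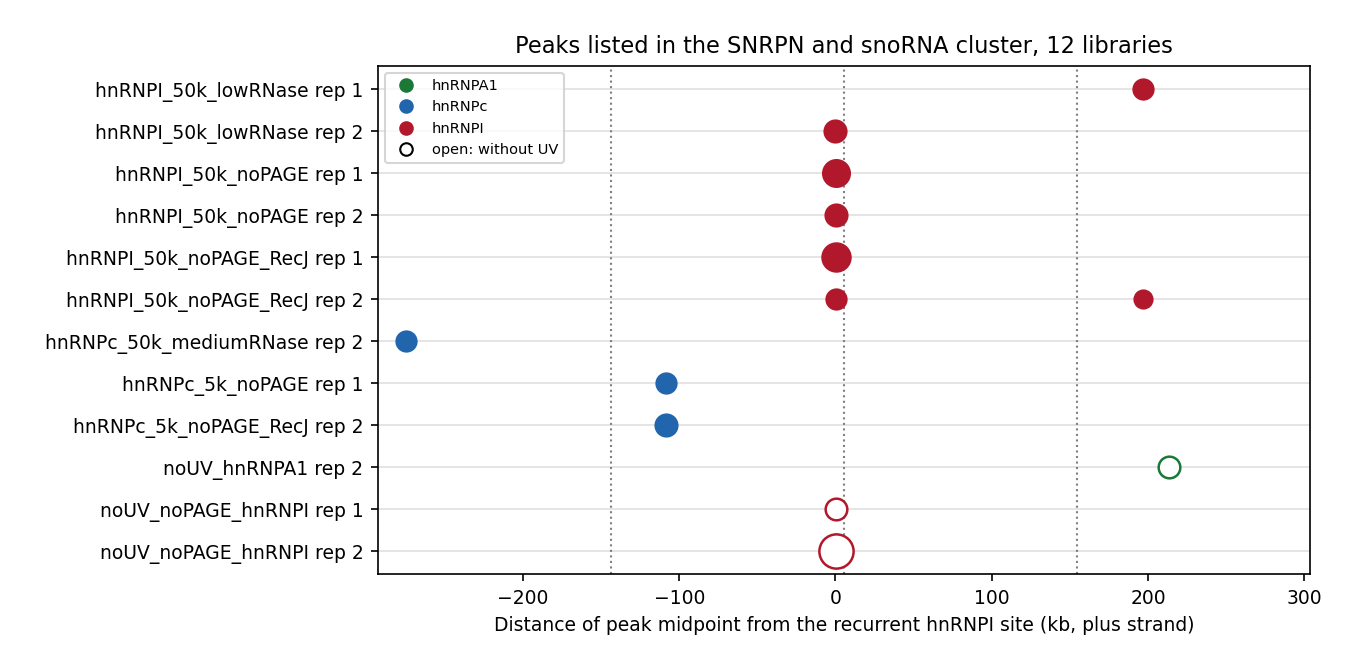
Each circle is 1 of the 13 peaks, placed by its distance in kb from the recurrent hnRNPI site (horizontal axis) and by library (vertical axis), with area in proportion to reads, from 4 to 15; open circles are libraries without UV and dotted lines divide the 4 stretches of 149 kb. Of the hnRNPI peaks, 7 stack at 0 kb, both hnRNPc libraries titled 5k sit at −109 kb, and no RBFOX2 library appears.

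At the recurrent site hnRNPI listed a peak in 5 of its 6 crosslinked 50k libraries. hnRNPI_50k_noPAGE had 9 reads in replicate 1 and 6 in replicate 2. hnRNPI_50k_noPAGE_RecJ had 10 and 5 reads. hnRNPI_50k_lowRNase had 6 reads in replicate 2, while replicate 1 listed no peak there. Both noUV_noPAGE_hnRNPI libraries listed it as well, with 6 and 15 reads, so the highest number came from a library without crosslinking. The noUV_hnRNPI libraries, which went through PAGE, listed none, and their lists were short, with 18690 and 36809 peaks. Read numbers are not scaled to depth.

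The ends of these peaks nearly coincided. A start at 25360695 was shared by 4 of 7 peaks, and 6 of 7 ended at 25360757 or 25360758. The exception was hnRNPI_50k_lowRNase replicate 2, at 25360684 to 25360737. All 7 shared 43 nt, and the midpoints of the caller's inner interval lay within 25 nt. The deposited p was 1.04e-08 in noPAGE_RecJ replicate 1, 1.16e-07 in noPAGE replicate 1 and 1.96e-14 in noUV_noPAGE_hnRNPI replicate 2. Those 3 peaks were the only members with p below 1e-05.

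**Figure D3:**
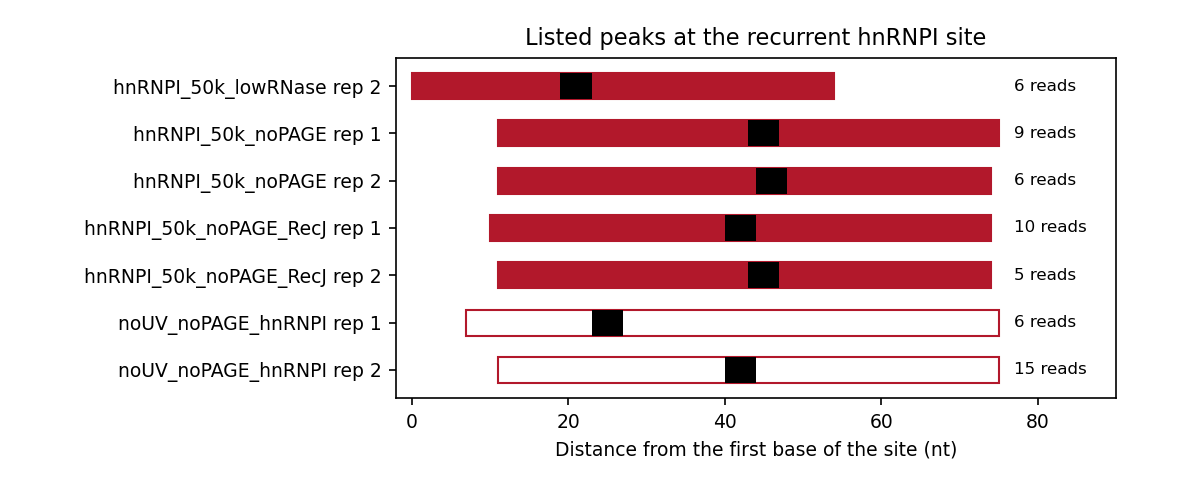
Extent of the 7 hnRNPI peaks at the recurrent site, in nt from its first base; filled bars are crosslinked libraries, open bars are libraries without UV, black blocks are the caller's inner interval, and reads are given at the right. Of the 7 peaks, 6 end within 1 nt of each other, and hnRNPI_50k_lowRNase replicate 2 begins and ends earlier.

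To set the site against the rest of the lists, the genome was cut into bins of 100 nt, and a bin was counted for a protein when at least 5 of its 6 crosslinked 50k libraries had the midpoint of an inner interval in it. The region held 1 bin for hnRNPI, at the recurrent site, and 0 for hnRNPA1, hnRNPc and RBFOX2. None of the 18 crosslinked 50k libraries of the other proteins held that bin, which is true of 51.8% of the 84416 hnRNPI bins. Both noUV_noPAGE_hnRNPI libraries held it, as for 5.43% of hnRNPI bins. Neither noUV_hnRNPI library held it. Both did so for 1.54% of hnRNPI bins. With 1 site, these shares describe where it falls and carry no test. With 6 of 6 libraries required, the region held 0 bins for any protein.

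The other hnRNPI peaks lay 197 kb downstream. hnRNPI_50k_lowRNase replicate 1 listed 25557536 to 25557599 with 5 reads, and hnRNPI_50k_noPAGE_RecJ replicate 2 listed 25557727 to 25557781 with 4 reads. They were 127 nt apart and did not overlap, and each was seen in 1 library. The second had the highest deposited p of the members, 0.00370.

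hnRNPc was listed at 2 sites, and in none of its 50k libraries at 0.005 U. A site at 25252019 to 25252106, which is 109 kb upstream of the recurrent site, had 5 reads in hnRNPc_5k_noPAGE replicate 1 and 6 reads in hnRNPc_5k_noPAGE_RecJ replicate 2. The other replicate of either group had no peak there. hnRNPc_50k_mediumRNase replicate 2 listed 25086132 to 25086188 with 5 reads, and this was the only member under ENSG00000128739.16 and the only one in the first stretch of 149 kb. hnRNPc had 20 crosslinked libraries, and 3 of them held a member.

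The single hnRNPA1 peak came from noUV_hnRNPA1 replicate 2, at 25574311 to 25574329, with 6 reads and a width of 19 nt. It was the narrowest member, in a list whose median width was 57 nt. None of the 8 crosslinked hnRNPA1 libraries, whose lists held 365593 to 523402 peaks, had a peak in the region.

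RBFOX2 was compared with each of the other proteins over the 6 crosslinked 50k libraries of each, with peaks per 100000 listed peaks as the measure. All 6 RBFOX2 libraries were at 0. The 6 hnRNPI libraries ranged from 0.283 to 0.597 with a median of 0.306, so the groups did not overlap. These shares rest on 7 members, with 2 in hnRNPI_50k_noPAGE_RecJ replicate 2 and 1 in each other hnRNPI library. The mean was 0 ± 0 (SD, n = 6) for RBFOX2 and 0.354 ± 0.121 (SD, n = 6) for hnRNPI. The exact two-sided permutation p, with libraries relabelled within protocol, was 0.00926, the smallest the design allows. Benjamini-Hochberg adjustment was made over the 15 tests planned, with the 5 that had no value counted as showing no difference. The difference in plain share then did not pass 0.05 (adjusted exact permutation p 0.0694). Adjusted over the 10 tests that had a value, it passed (0.0463). As reads per 1000000 listed reads, hnRNPI had 1.53 ± 0.335 (SD, n = 6) and RBFOX2 0, with the same exact permutation p and the same adjusted values. With only members of p below 1e-05 kept, 2 hnRNPI libraries of different protocols held a peak, and the peak share difference was −0.166. The exact permutation p was 0.5 for both measures. This is the smallest p possible with 2 such libraries, so the filter left a test that could not pass.

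That separation was common. hnRNPI libraries all lay above all RBFOX2 libraries in 32.2% of the 6878 windows of this length in which these 12 libraries listed a peak. They lay above all 18 libraries of the other proteins, as they did here, in 11.0% of 7066 windows. RBFOX2 lists were shorter than hnRNPI lists, with 157375 to 260610 peaks against 294597 to 353415. The minus strand of the window shows the same order, with 3 to 21 peaks in the 6 RBFOX2 libraries and 44 to 69 in the 6 hnRNPI libraries. As shares, this was 1.87 to 8.06 and 14.9 to 20.6 peaks per 100000. The part of list length in the count of 0 was not tested beyond the scaling to listed peaks.

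Against hnRNPA1 and hnRNPc, RBFOX2 could not be ordered, because all 18 libraries were at 0 (exact permutation p of 1 for both measures). On the minus strand, hnRNPA1 listed 63 to 84 peaks per library and hnRNPc 0 to 76, where the 0 belongs to the short replicate 1 of hnRNPc_50k_lowRNase. RBFOX2 libraries from 10000 and 1000 cells and those without UV also held 0 members, so all 14 RBFOX2 libraries were empty. They listed 73 peaks between them on the minus strand of the window.

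**Figure D4:**
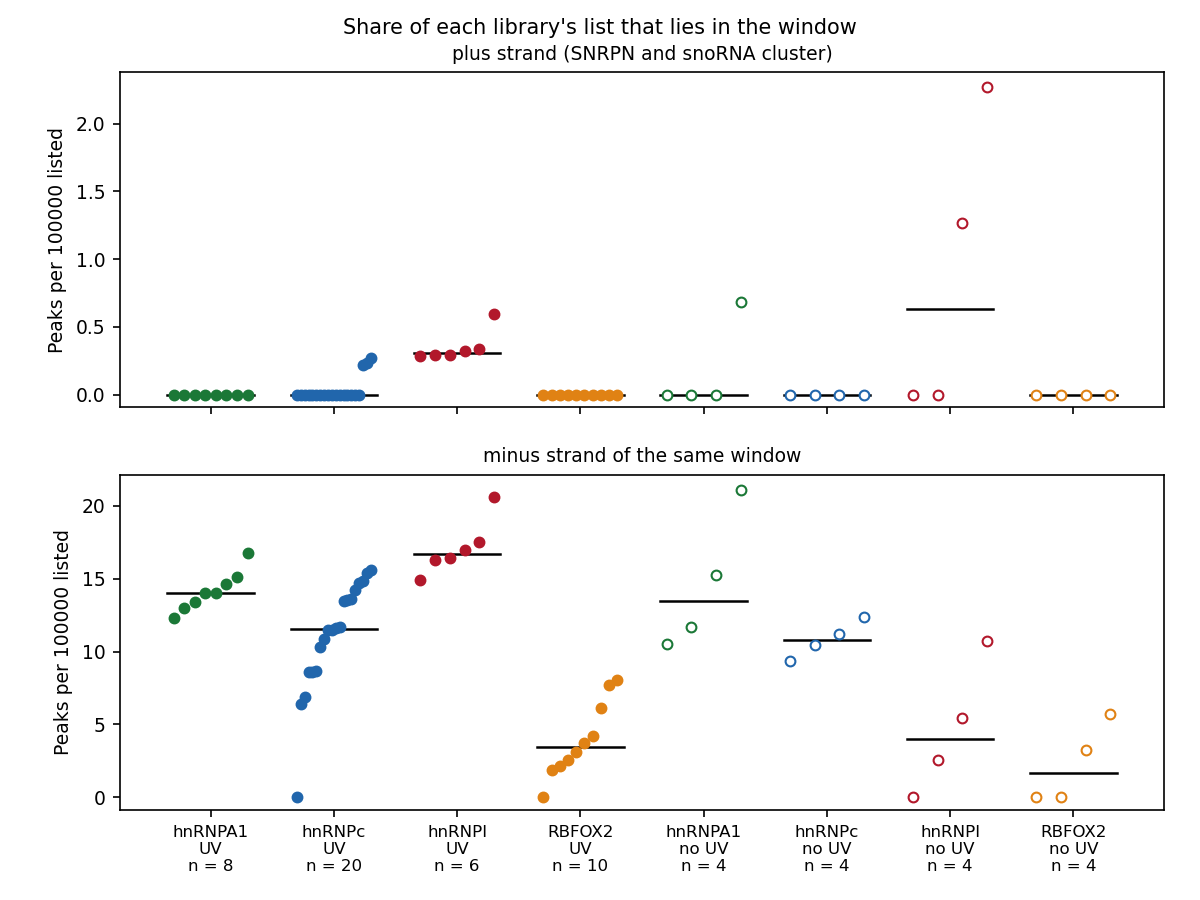
Peaks in the window per 100000 listed peaks for each library (vertical axes, different scales), on the plus strand (top) and the minus strand (bottom); filled circles are crosslinked, open circles are without UV, horizontal lines are medians, and circles within a class are sorted by value. On the plus strand all 14 RBFOX2 libraries are at 0 and all 6 crosslinked hnRNPI libraries are above 0, and the highest value, 2.27, is noUV_noPAGE_hnRNPI replicate 1.

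Crosslinking was compared over the 4 proteins, with libraries relabelled within protein. With PAGE, 2 of 8 crosslinked libraries and 1 of 8 noUV libraries held a member. The mean was 0.0824 ± 0.153 (SD, n = 8) peaks per 100000 with UV and 0.0851 ± 0.241 (SD, n = 8) without, with an exact permutation p of 1. The crosslinked members were both from hnRNPI and the noUV member was from hnRNPA1. Only the libraries with these members were above 0, so no relabelling could give a p low enough to pass. The test with PAGE therefore could not show a difference. Without PAGE, 2 of 8 libraries held a member on either side, all of them hnRNPI at the recurrent site. The mean was 0.0719 ± 0.133 (SD, n = 8) with UV and 0.442 ± 0.861 (SD, n = 8) without. The exact permutation p was 0.333 (adjusted p 1 over 15 tests and 0.833 over 10). Only hnRNPI libraries were above 0, so 0.333 was the smallest p possible and the test could not show a difference. In reads per 1000000 the means were 0.312 ± 0.588 (SD, n = 8) and 2.02 ± 3.86 (SD, n = 8), also with an exact permutation p of 0.333. With reads summed over peaks as listed, without joining, the difference was −0.743 in place of −1.71, at the same exact permutation p.

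Within hnRNPI, the crosslinked noPAGE libraries held 0.283 and 0.292 peaks per 100000, and the libraries without UV held 2.27 and 1.27. Each of the 4 lists held exactly 1 member. The lists differed in length, with 353415 and 341973 peaks with UV and 44086 and 78945 without. In peaks, the higher share without UV is therefore 1 peak over a shorter list. Those peaks had 9 and 6 reads with UV, and 6 and 15 without. As read shares, on the scale used above, these were 1.46 and 1.03 with UV, and 6.36 and 9.81 without. The part of list length in the read shares was not tested. The labels name no preparation batch, so any preparation batch and the lack of UV cannot be told apart.

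The same permutation tests were run over all windows with a mean of at least 10 peaks per library, which the region did not reach in any comparison (its highest mean was 0.583). With p-values adjusted over windows at 0.05, RBFOX2 differed in either direction from hnRNPA1 in 81.4% of windows, from hnRNPc in 26.8% and from hnRNPI in 83.0%. Crosslinked libraries differed from noUV libraries in 3.82% of windows with PAGE and in 46.6% without. The comparison of RBFOX2 with hnRNPc and that of UV with noUV under PAGE include hnRNPc_50k_lowRNase replicate 1. Its list held 3268 peaks against 214849 in replicate 2, so a single peak there is a large share. The effect of this library on the percentages was not tested.

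Replicates of a group shared 6 of the 13 members, counted by overlap of at least 1 nt. All 6 were hnRNPI peaks at the recurrent site, in noPAGE, noPAGE_RecJ and noUV_noPAGE pairs. In the 12 lists that held members, 34.8% to 65.0% of all peaks overlapped the other replicate, with a median of 52.2%. Of the 3 members without UV, both hnRNPI peaks overlapped crosslinked 50k peaks of hnRNPI, as did 66.4% and 56.0% of all peaks in their lists. The hnRNPA1 peak overlapped none of its own protein, where 84.7% of its list did. Of the 3 members, 0 overlapped a crosslinked 50k peak of another protein, where 24.8% to 41.0% of these lists overlapped any single other protein. With 3 peaks, these counts are a description and carry no test.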

How the data were processed

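Peak lists of 68 libraries were used. Per the submitters' processing notes, bcl2fastq, STAR 2.7.3a, UMI-tools 1.0.1 and hg19 were used, with no role given, and the file names point to CLIPper. Each list has 8 columns, and the p-value of each peak is the deposited one; no adjustment is stated. Lists were made per library and hold no read totals. Members, windows and named positions were chosen with earlier results of these data known.

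Peaks less than 30 nt apart were joined, at their highest read number, for read shares. Differences were tested by exact two-sided permutation within strata (protocol or protein), with Benjamini-Hochberg adjustment (Python 3.11.15, numpy 2.4.6). The test was checked on simulated counts for windows with a mean of at least 10 peaks per library, which the region did not reach. A log2 peak share with a pseudocount of 0.5 and a log2 read share had been planned. Most libraries held 0 peaks, so the first followed list length and the second had no value; plain shares replaced both after the values were seen. Of 15 planned tests, the 5 on the second stretch of 149 kb had no value in libraries without a member and were not run. Named positions are the bins held by at least 5 of 6 libraries of a protein, of which there was 1, and all other members, which were named after their values were seen. Named identifiers hold at least 5% of members. No sequence is shown because no hg19 genome was used here. Alternatives were a stricter p, joined peaks, other denominators, pseudocounts, bin sizes, a replicate block and each replicate left out.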

Additional observations from a re-analysis of the deposited data

Results flagged for a closer look

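Members appeared in 3 hnRNPc libraries that enter none of the tests above, where all 4 hnRNPc libraries without UV held 0. They were hnRNPc_50k_mediumRNase replicate 2, hnRNPc_5k_noPAGE replicate 1 and hnRNPc_5k_noPAGE_RecJ replicate 2, with 1 peak each. Of all 20 crosslinked hnRNPc libraries, 3 held a member. The 4 lists without UV were shorter, at 187729 to 299616 peaks against 366417, 464443 and 430772 in the 3 named libraries. The differences were not tested.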

How the results depend on the processing

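With members of p below 1e-05 only, RBFOX2 against hnRNPI was at −0.166 peaks per 100000 and −0.641 reads per 1000000. The unadjusted exact permutation p was 0.5 for both, against 0.00926 on all members. With so few libraries left holding a peak, 0.5 is the smallest p possible, so it cannot show whether the difference weakened. With a pseudocount of 1 peak RBFOX2 against hnRNPI was −0.24 on the log2 scale (exact permutation p 0.167). With the planned 0.5 it was −0.85 (exact permutation p 0.00926). The pseudocount gave RBFOX2 against hnRNPA1 a log2 difference of 1.45 (exact permutation p 0.00926), and UV against noUV without PAGE −1.62 (exact permutation p 0.00154), at 0.5 and 1 alike. Both compare groups with equal numbers of members, so these values are list lengths alone by construction. The plain share was chosen after the values were seen. At 6 of 6 libraries the region held 0 bins. At p below 1e-05 replicates shared 0% of members instead of 46.2%, and the noUV match to the own protein was 100% instead of 66.7%, with 1 member left without UV. With 1 replicate left out, RBFOX2 against hnRNPI ranged from −0.405 to −0.303 peaks per 100000 and from −1.64 to −1.42 reads per 1000000, with exact permutation p of at most 0.0185. UV against noUV ranged from −0.0878 to 0.0824 with PAGE and from −0.495 to −0.245 without, and in reads per 1000000 from −0.322 to 0.419 and from −2.14 to −1.28. With PAGE the sign turned, to 0.0824 without noUV_hnRNPA1 replicate 2, to 0.00226 with joined peaks, and in reads to −0.322 without noUV_hnRNPA1 replicate 1 and −0.0334 without hnRNPI_50k_lowRNase replicate 2. Reads summed over peaks as listed gave −0.743 for UV against noUV without PAGE and −1.04 for RBFOX2 against hnRNPI. RBFOX2 against hnRNPA1 and hnRNPc stayed at 0, and the noUV match ranged from 50% to 100%. With a replicate block, RBFOX2 against hnRNPI had an unadjusted exact permutation p of 0.0312 for both measures, the smallest it allows. This p is too large to pass after adjustment over the tests that had a value, where 0.00926 without the block passed. As the smallest p possible, it cannot show whether the difference weakened. No other comparison passed with or without the block. The replicate numbers did not pair the libraries: over 18 pairs of groups, replicate differences correlated at −0.0224 to 0.0878 across windows. Depth is unknown, and peaks under 4 reads are not listed.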
